A study of Mus musculus with 14 samples.

Results

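Solute carriers are membrane proteins that move amino acids, sugars, nucleosides, metals and other small molecules across the plasma membrane and the membranes of lysosomes, Golgi, endoplasmic reticulum and mitochondria. The 95 genes described here were chosen by their measured levels: every entry with a single name of the Slc form (a family number, letters and a member number) that reached 10 FPKM in at least 2 of the 14 libraries. FPKM, the level unit of the Cufflinks tools, is scaled for transcript length and for the fragments mapped in a library. The 95 came from 345 such single-name entries, of which 172 were tested, and from 11977 tested entries in all. Slc2a1, Slc2a6, Slc16a1, Slc16a3, Slc7a2, Slc7a11 and Slc40a1, glucose, lactate, arginine, cystine and iron carriers, were set aside by name. The level that chose the genes is a description and supports nothing below. Where the second-highest library decided, Slc45a4 with 10.2 FPKM, Slc35b3 with 10.44 and Slc36a4 and Slc10a7 with 10.48 each were just inside, and Slc52a2 with 9.97 and Slc26a2 with 9.18 just outside.

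Bone marrow-derived macrophages from male C57Bl6/J mice aged 6 to 12 weeks, grown with L929-conditioned medium as the source of CSF-1, received a first stimulus for 24 h, a wash and a second stimulus. The first stimulus was Poly I:C at 100 ng/mL, a synthetic double-stranded RNA sensed by TLR3, or PBS. The second was LPS, the TLR4 ligand of Gram-negative bacteria, or PBS, for 2 h or 6 h; its LPS concentration is not given unambiguously in the sources used here. Groups are named by first and second stimulus, so that Poly I:C-LPS cells had Poly I:C and then LPS. Poly I:C-LPS, PBS-LPS and Poly I:C-PBS had 2 libraries each at each time, and PBS-PBS had 1 at each time. All 14 were libraries of polyadenylated RNA. Nothing in the labels ties replicates to different animals or cultures, so the p-values reflect library-to-library spread that may be technical only.

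Macrophages use these carriers in ways that are well described. Lysosomal carriers pass bacterial peptides and nucleosides to the cytosol, Nramp-type carriers remove iron and manganese from phagosomes, and zinc and copper carriers change the metal supply that a microbe meets. Amino acid exchangers, many of which are pairs of a heavy and a light chain, feed protein synthesis, nitric oxide and glutathione production, and the Slc25 family carries metabolites over the inner mitochondrial membrane.

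Depth is unknown from FPKM alone, but the value of 1 fragment, read from the low values, spanned 3.08-fold over the libraries. All 7 macrophage markers examined, Cd68, Lyz2, Csf1r, Itgam, Fcgr1, Mertk and Adgre1 (listed as Emr1), were present in every library. Their summed level was 4149 to 7471 FPKM in the 8 libraries with Poly I:C first and 13519 to 18654 in the 6 with PBS first. Lyz2, at 2408 to 16240 FPKM over the libraries, weighs most in that sum, and Cd68 follows at 946.1 to 2180. The summed level thus moved with the first stimulus, and the single markers are not given by group here. The T cell markers Cd3e, Cd3g and Trac were at 0 in all libraries. All 4 neutrophil markers summed to at most 7.01 FPKM, with Elane at 0. Siglech, the plasmacytoid dendritic cell marker, was at most 0.136 FPKM, and the red cell marker Hba-a1 at most 0.301. The stromal markers Col1a1, Col1a2 and Dcn summed at 2 h to 39.1 and 102 FPKM in Poly I:C-LPS cells, 13.4 and 14.1 in PBS-LPS cells, 52.9 and 53.6 in Poly I:C-PBS cells and 18.4 in the PBS-PBS library. At 6 h they summed to 38.5 and 48.02 FPKM, 21 and 55.1, 20.7 and 37.4, and 16.6 FPKM in the same order of groups. Fewer cells of a type and less RNA per cell cannot be told apart in such bulk libraries, and the part of these levels in the results below was not tested.

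Of the 95 genes, 38 were at or above 10 FPKM in all 14 libraries and 73 averaged at least that level. Between the highest and the lowest of the 8 group means, the median gene spanned 3.73-fold, 82 genes spanned over 2-fold, 40 over 5-fold and 19 over 10-fold. The mitochondrial oxoglutarate carrier Slc25a11, with a span of 1.33-fold, was the only gene under 1.5-fold. The highest group mean of the 8 fell in Poly I:C-PBS cells at 6 h for 17 genes and in PBS-LPS cells at 6 h for 17, and the lowest in Poly I:C-LPS cells at 6 h for 26.

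A few genes held much of the carrier transcript. Slc15a3, Slc3a2, Slc31a2 and Slc11a1, the 4 with the highest mean, held 48.8% and 48.8% of the summed FPKM of the 95 genes in Poly I:C-LPS cells at 2 h, 18.8% and 16.3% in PBS-LPS cells, 42.4% and 42.2% in Poly I:C-PBS cells and 12.3% in the PBS-PBS library. At 6 h their share was 49.1% in both Poly I:C-LPS libraries, 32.7% and 33% in PBS-LPS cells, 34.8% and 34% in Poly I:C-PBS cells and 11.2% in the PBS-PBS library. The 4 genes were picked by their mean over these same 14 libraries, most of them stimulated. That choice favours genes high after a stimulus. The lowest share, in the libraries without either stimulus, is therefore not a separate result. The other 91 genes summed to between 2078 and 3017 FPKM in all 14 libraries. In all, the 95 genes made up 0.54% to 0.86% of the FPKM of named entries.

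**Figure D1:**
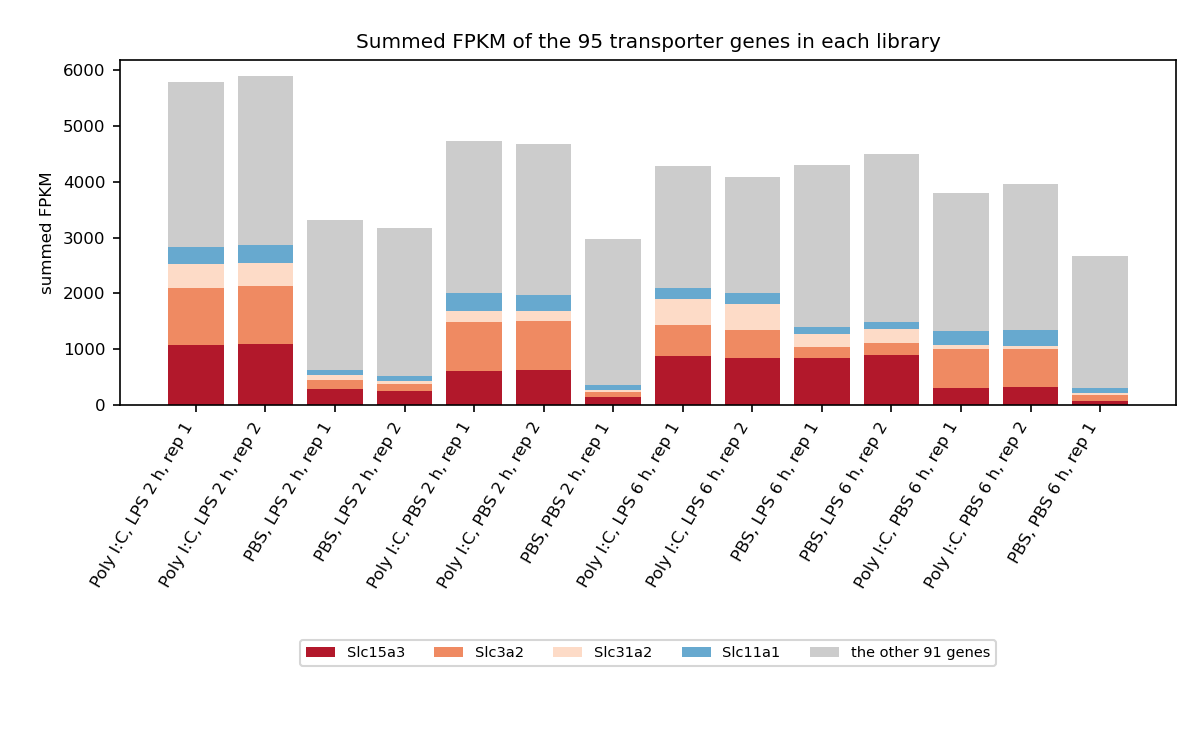
Summed FPKM (y axis, linear) of the 95 transporter genes in each of the 14 libraries (x axis), with the 4 genes of highest mean level stacked in colour under the other 91. The coloured part runs from 299.8 FPKM in the PBS-PBS library at 6 h to 2872 FPKM in a Poly I:C-LPS library at 2 h. The grey part lies between 2078 and 3017 FPKM. The 4 coloured genes were picked by their mean over these libraries, so their low sum in PBS-PBS is not a separate result.

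The main question of the design is what an earlier Poly I:C stimulus does to the LPS response, and Poly I:C-LPS cells were therefore set against PBS-LPS cells. Tests were made with limma on log2(FPKM + 1) over all tested entries, and calls were made where the p adjusted after Benjamini and Hochberg was under 0.05. At 2 h limma called 37 of the 95 genes higher and 25 lower, against 32.6% higher and 28.5% lower over all 11977 tested entries. At 6 h it called 22 of the 95 genes higher and 41 lower, against 23.7% higher and 25.9% lower over all 11977 tested entries. A gene that, outside the comparison, did not reach 10 FPKM in 2 libraries on both sides of the stimulus compared may have been chosen by its height on one side. Such a gene gets no p, and its difference is given as a descriptive log2 fold change. Counting only genes that met the rule outside the comparison both with Poly I:C first and with PBS first, the calls were 28 higher and 17 lower of 70 at 2 h and 13 higher and 31 lower of 66 at 6 h. Over the 6958 tested entries past the same FPKM rule, 37.5% were higher and 29.7% lower at 2 h, close to the carriers' 38.9% and 26.3%. At 6 h the carriers' 43.2% lower stood beside 32.8% of those entries, and their 23.2% higher beside 24.8%. Of the 37 genes higher at 2 h, 18 were also higher at 6 h (48.6% of the 37 and 81.8% of the 22) and 12 were lower at 6 h. Those 12 were Slc15a4, Slc23a2, Slc25a12, Slc25a22, Slc25a45, Slc29a3, Slc30a7, Slc31a1, Slc35f5, Slc37a2, Slc39a1 and Slc7a8. Calls shared or reversed between the times were not counted over all tested entries.

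LPS itself was set against PBS as second stimulus, after each first stimulus. After Poly I:C, at 2 h, limma called 22 of the 95 genes higher and 14 lower, against 14% higher and 8.72% lower over all 11977 tested entries. After Poly I:C, at 6 h, it called 24 of the 95 genes higher and 37 lower, against 21.7% higher and 22.2% lower over all 11977 tested entries. After PBS, with 2 libraries against 1, the calls at 2 h were 15 of the 95 genes higher and 13 lower, against 9.47% higher and 6.39% lower over all 11977 tested entries. After PBS at 6 h they were 37 of the 95 genes higher and 28 lower, against 22.9% higher and 20.6% lower over all 11977 tested entries. LPS thus left more carriers called at 6 h than at 2 h after either first stimulus, as it did over all tested entries. Among genes meeting the rule outside the comparison both with LPS and with PBS second, the calls were 18 higher and 9 lower of 74 and 22 higher and 29 lower of 74 after Poly I:C, and 11 higher and 7 lower of 70 and 31 higher and 19 lower of 72 after PBS, at 2 h and 6 h in turn. Of the tested entries past the same rule, 28.3% were higher and 23% lower after Poly I:C at 6 h, beside 25.3% and 38.9% of the carriers, and 32.8% and 17.9% after PBS, beside 38.9% and 29.5%. Their shares after Poly I:C at 2 h were 18.6% and 6.91%, beside 23.2% and 14.7% of the carriers. After PBS at 2 h they were 14.2% and 5.69%, beside 15.8% and 13.7% of the carriers. At 2 h after PBS, 22 rather than 13 were lower without PBS-LPS replicate 2, and 6 with the libraries of that time alone. After Poly I:C the 22 higher became 11 without replicate 2 of Poly I:C-LPS or of Poly I:C-PBS, and the 14 lower became 8 to 9 without replicate 1 or 2 of Poly I:C-LPS or replicate 1 of Poly I:C-PBS.

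Poly I:C without LPS was measured against PBS throughout, again with 2 libraries against 1. At 2 h after the second PBS, limma called 30 of the 95 genes higher and 25 lower, against 24.9% higher and 22.4% lower over all 11977 tested entries. At 6 h it called 27 of the 95 genes higher and 22 lower, against 18.4% higher and 16.1% lower over all 11977 tested entries. Over the 6958 tested entries past the same FPKM rule, 31.6% were higher and 23.7% lower at 2 h, beside 31.6% and 26.3% of the carriers. The shares of those entries at 6 h were 24.6% and 17.3%, beside 28.4% and 23.2% of the carriers. Among genes meeting the rule outside the comparison with Poly I:C first and with PBS first, the calls were 24 higher and 15 lower of 69 at 2 h and 20 higher and 15 lower of 70 at 6 h. The 2 times share no library: 21 genes were higher at both (70% of the 30 and 77.8% of the 27) and 17 lower at both (68% of the 25 and 77.3% of the 22), and Slc26a11 alone was called in opposite directions. Its PBS-PBS libraries were far apart, at 29.2 FPKM at 2 h and 11.7 at 6 h. With both as 1 control it was called at neither time (descriptive log2 fold changes of -0.32 and 0.10). Slc25a37, Slc26a11, Slc29a3 and Slc31a2 were called in all 8 pairwise comparisons, and Slc25a11, Slc35a2, Slc35a5, Slc39a9 and Slc41a2 in none. Calls at both times, in all comparisons or in none were not counted over all tested entries.

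**Figure D2:**
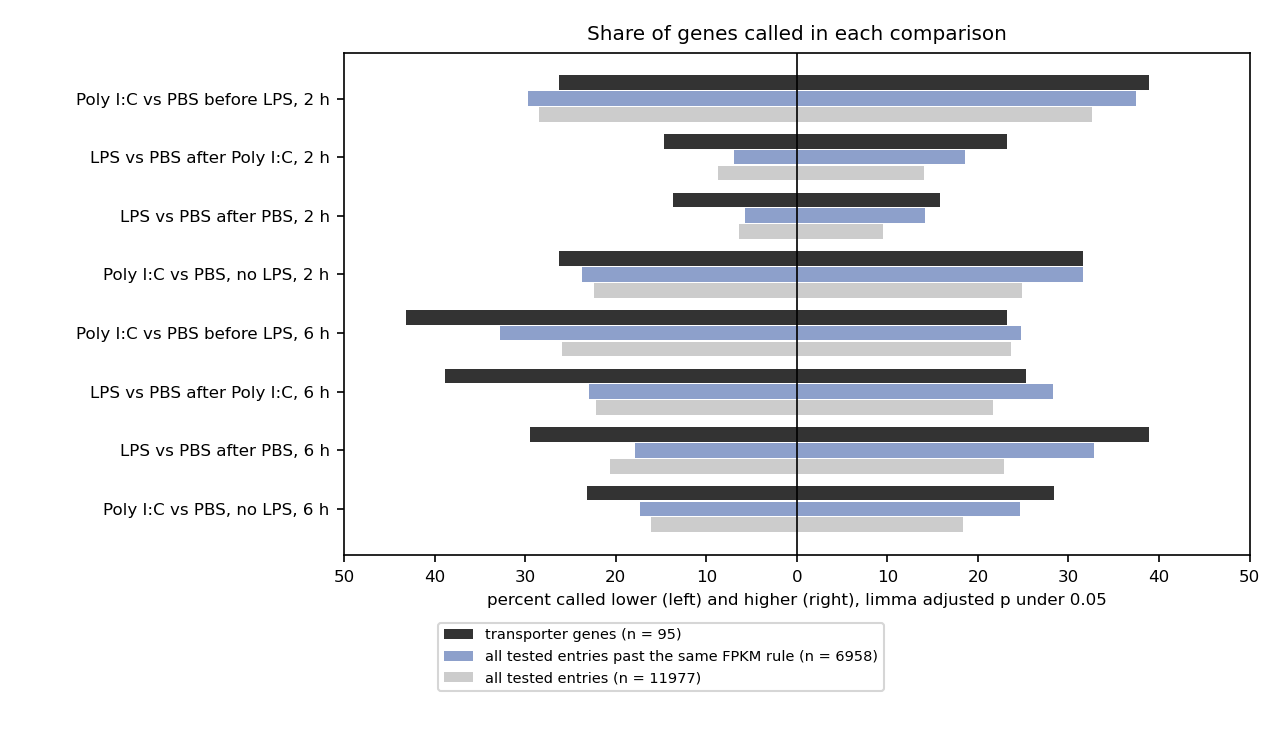
Percent of genes called higher (right of 0) and lower (left of 0) by limma in each of the 8 pairwise comparisons, for the 95 transporter genes (black), the 6958 tested entries past the same FPKM rule (blue) and all 11977 tested entries (grey). The black bars reach furthest left for Poly I:C before LPS at 6 h, at 43.2%, against 32.8% (blue) and 25.9% (grey).

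**Figure D3:**
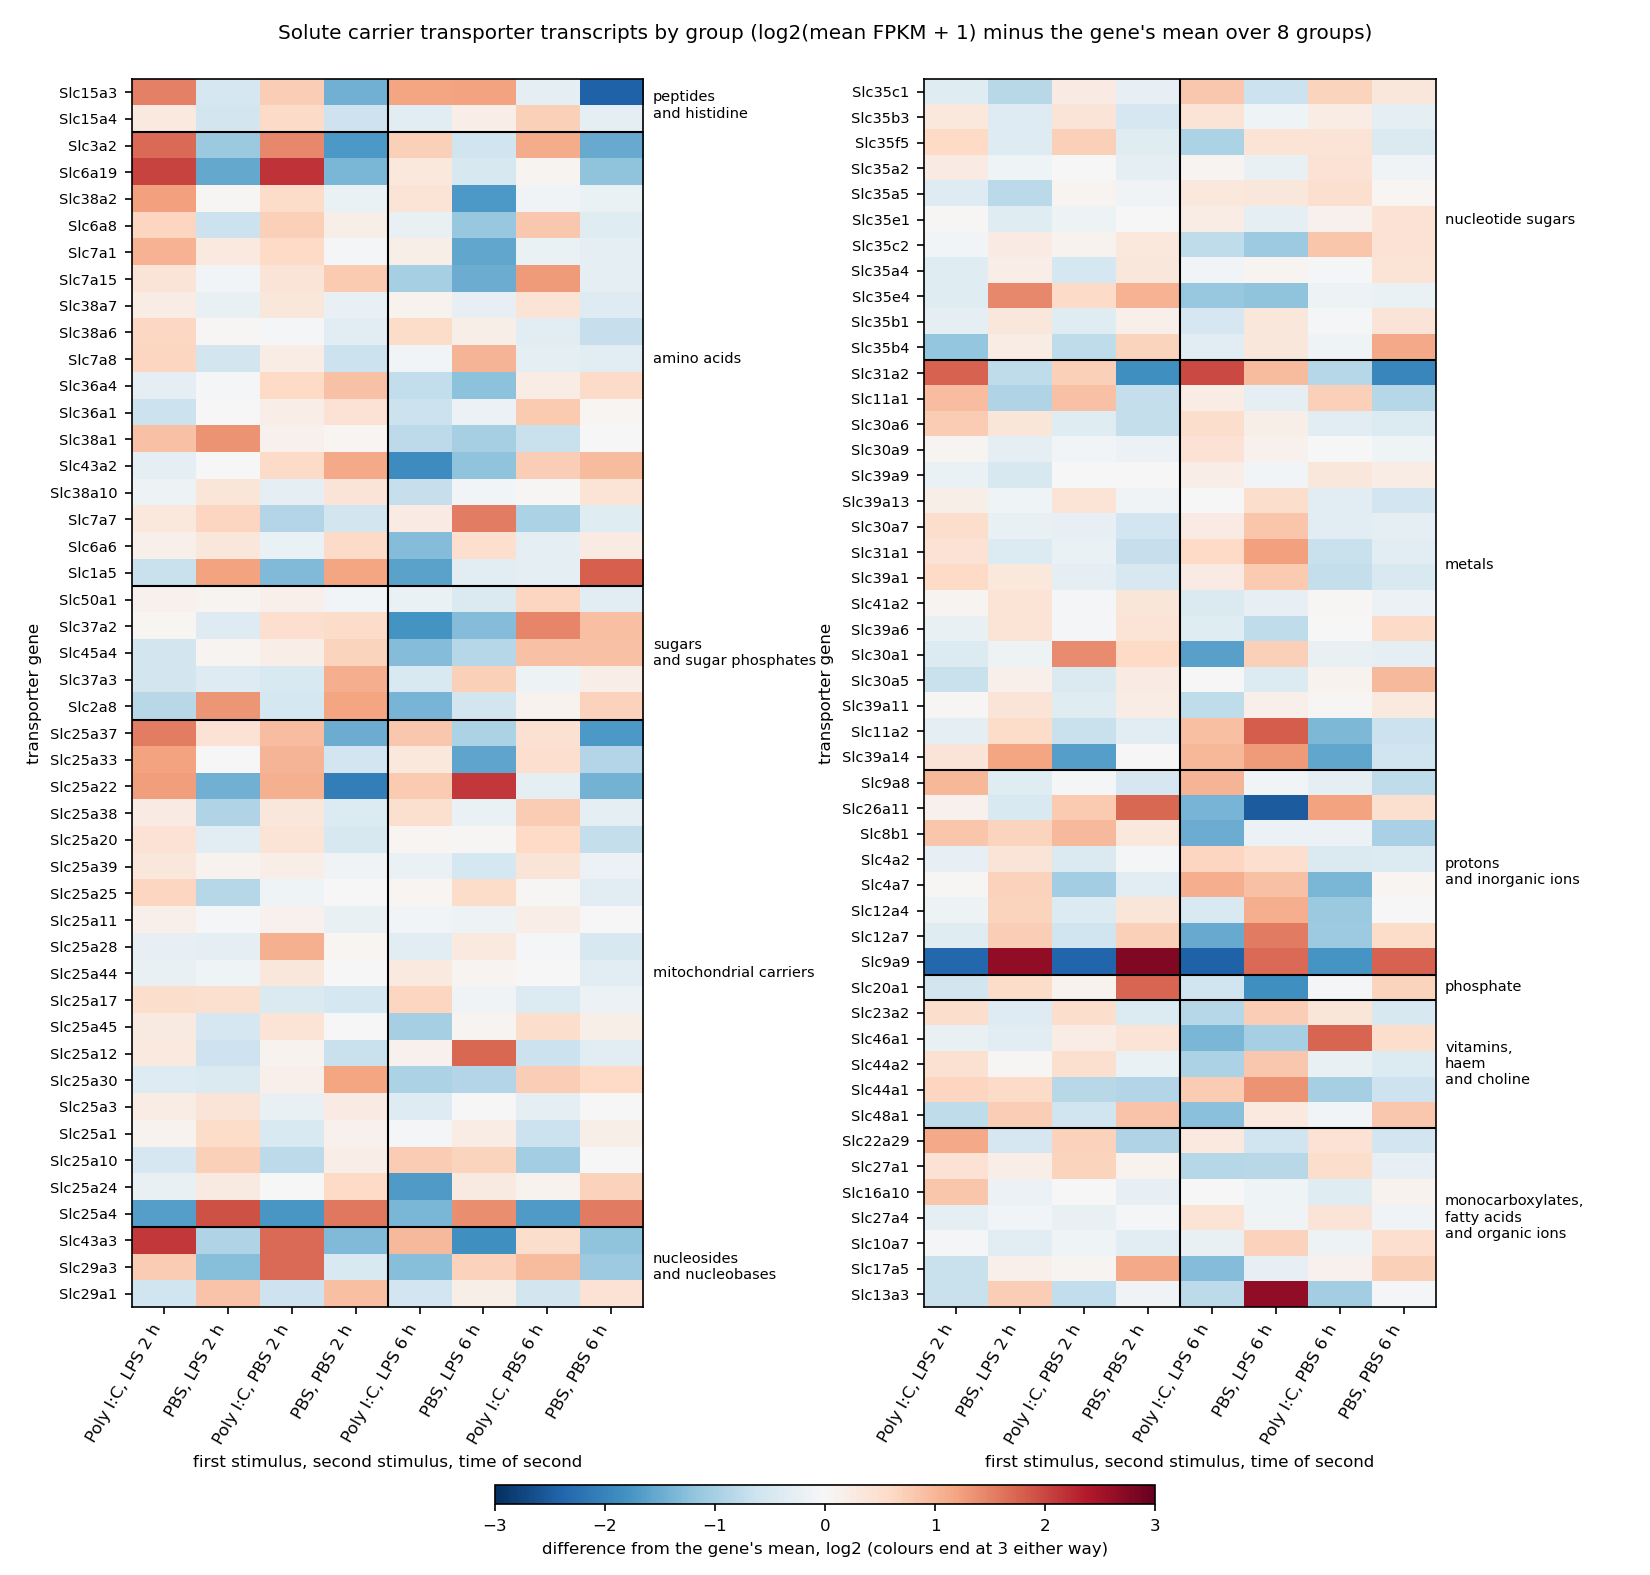
All but 1 of the 95 genes (rows, grouped by what they carry) in the 8 groups (columns, 2 h left and 6 h right of the vertical line), as log2(mean FPKM + 1) minus the gene's own mean over the groups. Red is above and blue below that mean: Slc3a2 and Slc43a3 are red and Slc25a4 and Slc9a9 blue in the Poly I:C columns at 2 h.

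Peptide and histidine carriers. Slc15a3 and Slc15a4 are proton-coupled carriers of lysosomes and endosomes that move histidine and bacterial peptides such as NOD ligands to the cytosol. Slc15a3 (chr19:10839727-10869940, GRCm38) had the highest mean level of the 95 genes, 589 FPKM over the 14 libraries. At 2 h it stood at 1084 and 1087 FPKM in Poly I:C-LPS cells, 286 and 249.1 in PBS-LPS cells, 617 and 635 in Poly I:C-PBS cells and 138 in the PBS-PBS library. At 6 h its levels were 879 and 838 FPKM in Poly I:C-LPS cells, 846 and 894 in PBS-LPS cells, 300.2 and 323 in Poly I:C-PBS cells and 70.03 in the PBS-PBS library. The groups did not overlap at 2 h, and at 6 h the Poly I:C-LPS and PBS-LPS libraries overlapped. In limma, Poly I:C before LPS raised it by 2.02 on the log2 scale at 2 h (SE 0.11, adjusted p = 2.14e-07) and was not called at 6 h. LPS raised it at 6 h by 1.46 after Poly I:C and by 3.62 after PBS (adjusted p = 3.13e-06 and 2.64e-08), and the LPS effects differed by -2.16 (SE 0.18, adjusted p = 1.82e-05). An exon of Slc15a3 is overlapped on the opposite strand by Tmem132a, which was at 9.06 to 55.4 FPKM; the kit was stranded, but the strand setting of the counting is not given in the sources used here.

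Slc15a4, whose loss in mice is known to blunt endosomal TLR responses, was far lower: at 2 h it was at 23.6 and 23.3 FPKM in Poly I:C-LPS cells, 13.4 and 11.8 in PBS-LPS cells, 28.3 and 29.1 in Poly I:C-PBS cells and 12.1 in the PBS-PBS library. Its 6 h levels were 14.5 and 15.6 FPKM in Poly I:C-LPS cells, 21.6 and 22.4 in PBS-LPS cells, 32.8 and 31.3 in Poly I:C-PBS cells and 15.5 in the PBS-PBS library. Poly I:C-PBS libraries were the highest at each time. Poly I:C-LPS cells were above PBS-LPS cells at 2 h (log2 fold change 0.85, SE 0.11, adjusted p = 6.91e-05) and below them at 6 h (log2 fold change -0.52, SE 0.11, adjusted p = 0.00255), both in limma.

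Amino acid carriers. Of the 17 amino acid and related carriers, 8 were higher and 3 lower in Poly I:C-LPS than in PBS-LPS cells at 2 h, and 6 higher and 7 lower at 6 h. Those shares were 47.1% and 17.6% at 2 h and 35.3% and 41.2% at 6 h. Entries past the same FPKM rule had 37.5% and 29.7% at 2 h and 24.8% and 32.8% at 6 h. The carrier counts are descriptive. Slc6a19, counted higher, reached 10 FPKM only with Poly I:C first, and Slc1a5, counted lower, only with PBS first. The shares over all tested entries were 32.6% higher and 28.5% lower at 2 h, and 23.7% and 25.9% at 6 h. LPS at 6 h left 2 higher and 9 lower after Poly I:C, and 5 higher and 9 lower after PBS. Those shares were 11.8% and 52.9% after Poly I:C and 29.4% and 52.9% after PBS. Entries past the FPKM rule had 28.3% and 23% after Poly I:C, and 32.8% and 17.9% after PBS. The genes counted lower include Slc36a4 and Slc7a15, which reached 10 FPKM only in libraries without LPS. Shares over all tested entries were 21.7% higher and 22.2% lower after Poly I:C, and 22.9% and 20.6% after PBS. Slc3a2 (chr19:8706882-8726442, GRCm38) encodes CD98 heavy chain, the partner that light chains of the Slc7 family need at the cell surface. At 2 h Slc3a2 was at 1018 and 1055 FPKM in Poly I:C-LPS cells, 169 and 124 in PBS-LPS cells, 867 and 864 in Poly I:C-PBS cells and 95.6 in the PBS-PBS library. Its 6 h levels were 547 and 498 FPKM in Poly I:C-LPS cells, 202 and 218 in PBS-LPS cells, 700.5 and 677 in Poly I:C-PBS cells and 110.2 in the PBS-PBS library. Every library with Poly I:C first was above every library with PBS first at both times. Limma gave log2 fold change 2.83, SE 0.14, adjusted p = 1.09e-07 for Poly I:C before LPS at 2 h, and log2 fold change 1.31, SE 0.14, adjusted p = 4.2e-05 at 6 h. Without LPS, Poly I:C gave 3.17 at 2 h and 2.63 at 6 h on the log2 scale (adjusted p = 3.31e-07 and 2.1e-06). The Slc3a2 entry also covers the loci of Snhg1 and several small nucleolar RNAs, which are listed as another entry.

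Slc7a8 and Slc7a7 are light chains that pair with CD98, and Slc7a1 is not. Slc7a8 (LAT2), a carrier of neutral amino acids, was at 170.4 and 164 FPKM in Poly I:C-LPS cells, 61.1 and 84.2 in PBS-LPS cells, 130.0 and 119 in Poly I:C-PBS cells and 68.2 in the PBS-PBS library at 2 h. At 6 h Slc7a8 was at 107 and 92.5 FPKM in Poly I:C-LPS cells, 208 and 223 in PBS-LPS cells, 81.2 and 92.9 in Poly I:C-PBS cells and 85.4 in the PBS-PBS library. Poly I:C-LPS libraries were the highest at 2 h and PBS-LPS libraries the highest at 6 h. In limma Slc7a8 was higher in Poly I:C-LPS than in PBS-LPS cells at 2 h (log2 fold change 1.21, SE 0.15, adjusted p = 7.11e-05) and lower at 6 h (log2 fold change -1.11, SE 0.15, adjusted p = 0.000211). Slc7a7 (y+LAT1), which exchanges arginine and lysine for neutral amino acids, was at 22.4 and 25.2 FPKM in Poly I:C-LPS cells, 56.4 and 63.7 in PBS-LPS cells, 9.62 and 10.2 in Poly I:C-PBS cells and 15.3 in the PBS-PBS library at 6 h. LPS raised Slc7a7 in limma by 1.19 at 2 h and 1.18 at 6 h after Poly I:C, and by 1.19 and 1.90 after PBS (adjusted p = 0.000204, 7.42e-05, 0.00105 and 1.16e-05). Slc7a1 (CAT1), an arginine and lysine importer that needs no heavy chain, was at 9.32 and 10.2 FPKM in Poly I:C-LPS cells, 2.51 and 1.99 in PBS-LPS cells, 5.91 and 8.56 in Poly I:C-PBS cells and 6.79 in the PBS-PBS library at 6 h, and Poly I:C-LPS cells were above PBS-LPS cells (a descriptive log2 fold change of 1.73). Slc7a7 has an exon overlapped on the opposite strand by Oxa1l, at 8.90 to 19.8 FPKM.

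Promoter windows from RefSeq on GRCm38.p6, from 250 bases before to 50 after a transcription start, were found for 78 of the 95 genes (110 windows). They were searched on both strands for 4 motifs: the interferon-stimulated response element as GAAANNGAA, the NF-kB consensus, the amino acid response element as TGATGNAA and the antioxidant response element as TGACNNNGC. The first was in windows of 5.13% of the 78 genes and 9.76% of all 27025 genes, the second in 10.3% and 5.14%, the third in 3.85% and 4.51%, and the fourth in 24.4% and 14%. The carriers' windows had a median of 60.7% G and C against 52.7% over all windows, and the part of that in these shares was not tested. The 4 windows printed are of genes that moved with Poly I:C or LPS, with the motif in capitals: the interferon motif in Slc7a8 (chr14:54781837-54782136, minus strand) and in Slc25a22 (chr7:141435326-141435625, minus strand), and the NF-kB consensus in Slc7a7 (chr14:54417630-54417929, minus strand) and in Slc39a1 (chr3:90247942-90248241, plus strand), where it reads the same on both strands. A match says that the letters are there, not that a factor binds. These 4 windows are a pick, and those with the amino acid or antioxidant motif are not printed. Whether a motif goes with a response was not tested.
Slc7a8: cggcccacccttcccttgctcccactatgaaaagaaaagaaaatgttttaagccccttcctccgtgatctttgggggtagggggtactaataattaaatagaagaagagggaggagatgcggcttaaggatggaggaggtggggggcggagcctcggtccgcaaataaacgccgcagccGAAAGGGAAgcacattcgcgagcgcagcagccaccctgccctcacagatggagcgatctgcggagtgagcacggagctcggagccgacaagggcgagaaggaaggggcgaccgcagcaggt
Slc25a22: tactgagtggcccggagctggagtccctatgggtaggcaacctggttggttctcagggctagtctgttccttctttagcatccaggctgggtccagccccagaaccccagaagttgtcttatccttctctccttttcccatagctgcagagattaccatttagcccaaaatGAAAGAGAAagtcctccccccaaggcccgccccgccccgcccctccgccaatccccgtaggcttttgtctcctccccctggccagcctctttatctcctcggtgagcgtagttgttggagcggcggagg
Slc7a7: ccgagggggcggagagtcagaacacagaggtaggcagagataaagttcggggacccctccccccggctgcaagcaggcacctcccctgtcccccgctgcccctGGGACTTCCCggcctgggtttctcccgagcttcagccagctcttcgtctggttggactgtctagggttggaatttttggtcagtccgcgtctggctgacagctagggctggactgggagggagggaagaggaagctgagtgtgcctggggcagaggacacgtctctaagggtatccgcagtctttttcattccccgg
Slc39a1: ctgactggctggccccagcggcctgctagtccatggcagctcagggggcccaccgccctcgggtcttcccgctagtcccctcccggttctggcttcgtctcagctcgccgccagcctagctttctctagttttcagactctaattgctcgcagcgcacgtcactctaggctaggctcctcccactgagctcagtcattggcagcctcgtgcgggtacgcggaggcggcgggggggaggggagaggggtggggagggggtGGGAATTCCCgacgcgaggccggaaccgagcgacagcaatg

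Slc38 and Slc1 carriers take up glutamine and small neutral amino acids. Slc38a2 (SNAT2), which takes up glutamine and alanine, was at 46.8 and 39.8 FPKM in Poly I:C-LPS cells, 12.9 and 23.7 in PBS-LPS cells, 27.7 and 25.4 in Poly I:C-PBS cells and 15.5 in the PBS-PBS library at 2 h. Its 6 h levels were 24.2 and 23.6 FPKM in Poly I:C-LPS cells, 4.59 and 4.87 in PBS-LPS cells, 16.5 and 16.2 in Poly I:C-PBS cells and 15.4 in the PBS-PBS library, lowest in both PBS-LPS libraries. Poly I:C-LPS cells were above PBS-LPS cells in limma at 2 h (log2 fold change 1.25, SE 0.22, adjusted p = 0.000616) and 6 h (log2 fold change 2.12, SE 0.22, adjusted p = 2.89e-05). Its neighbour Slc38a1 (SNAT1), 43760 bases away on chromosome 15, had LPS effects of 0.76 after Poly I:C and 1.25 after PBS at 2 h (adjusted p = 0.0193 and 0.00572), and of -1.02 after PBS at 6 h (adjusted p = 0.00592). Slc1a5 (ASCT2), an exchanger of glutamine, alanine and serine, was at 3.52 and 3.41 FPKM in Poly I:C-LPS cells, 16.99 and 13.7 in PBS-LPS cells, 1.78 and 1.91 in Poly I:C-PBS cells and 15.2 in the PBS-PBS library at 2 h. Here the libraries with Poly I:C first were all below those with PBS first. Limma gave a descriptive log2 fold change of -1.86 before LPS and a descriptive log2 fold change of -2.51 without LPS. At 6 h Slc1a5 was at 1.21 and 1.49 FPKM in Poly I:C-LPS cells, 4.27 and 5.22 in PBS-LPS cells, 7.22 and 2.47 in Poly I:C-PBS cells and 23.4 in the PBS-PBS library, and Poly I:C-LPS cells stayed below PBS-LPS cells (a descriptive log2 fold change of -1.29).

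Slc6a8, the creatine carrier, was at 194 and 179.9 FPKM in Poly I:C-LPS cells, 73.2 and 78.1 in PBS-LPS cells, 193 and 198 in Poly I:C-PBS cells and 133 in the PBS-PBS library at 2 h and at 104 and 97.8 FPKM in Poly I:C-LPS cells, 49.1 and 58.03 in PBS-LPS cells, 199.5 and 216 in Poly I:C-PBS cells and 91.9 in the PBS-PBS library at 6 h. It was lowest in PBS-LPS libraries at both times. Poly I:C-LPS cells exceeded PBS-LPS cells by 1.29 at 2 h and 0.91 at 6 h on the log2 scale in limma (SE 0.11 and 0.11, adjusted p = 4.94e-06 and 9.99e-05). Slc6a6, the taurine carrier, was at 38.6 and 35.4 FPKM in Poly I:C-LPS cells, 129 and 130.4 in PBS-LPS cells, 70.8 and 78.9 in Poly I:C-PBS cells and 109 in the PBS-PBS library at 6 h, lowest in Poly I:C-LPS cells (log2 fold change -1.78, SE 0.17, adjusted p = 1.6e-05 against PBS-LPS cells, in limma). Slc6a19 (B0AT1), a neutral amino acid carrier known from gut and kidney, was at 11.5 and 11.6 FPKM in Poly I:C-LPS cells, 0.0844 and 0.0172 in PBS-LPS cells, 11.96 and 13.4 in Poly I:C-PBS cells and 0.174 in the PBS-PBS library at 2 h. It reached 10 FPKM in the Poly I:C libraries of 2 h alone, and the descriptive log2 fold changes were 3.58 before LPS and 3.54 without LPS; with a pseudocount of 0.1 in place of 1 the values were 6.31 and 5.54. Slc6a19 lies 53846 bases from Slc12a7 on chromosome 13.

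The remaining amino acid carriers include facilitative and lysosomal ones. Slc43a2 (LAT4), a facilitative carrier of branched-chain and aromatic amino acids, was at 10.8 and 8.5 FPKM in Poly I:C-LPS cells, 18.4 and 13.7 in PBS-LPS cells, 59.6 and 69.5 in Poly I:C-PBS cells and 74.8 in the PBS-PBS library at 6 h. LPS lowered it in limma to a log2 fold change of -2.63 after Poly I:C and of -2.17 after PBS (SE 0.21 and 0.26, adjusted p = 5.12e-06 and 9.02e-05). Slc36a1 (PAT1), a proton-coupled lysosomal carrier, had a descriptive LPS effect at 6 h of -1.43 on the log2 scale after Poly I:C, -1.22 apart from that after PBS (adjusted p = 0.00138). Slc38a10 was lower in Poly I:C-LPS than in PBS-LPS cells at 2 h and 6 h, and Slc38a7, a lysosomal glutamine carrier, higher, with limma log2 fold changes of -0.51 and -0.60, and of 0.43 and 0.35. Slc38a6 was higher with LPS at 6 h after either first stimulus (0.87 after Poly I:C, 0.88 after PBS). The proton-coupled Slc36a4 and the Slc7 relative Slc7a15 reached 10 FPKM only in libraries without LPS. Their descriptive log2 fold changes for LPS after PBS at 6 h were -1.81 and -1.23.

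**Figure D4:**
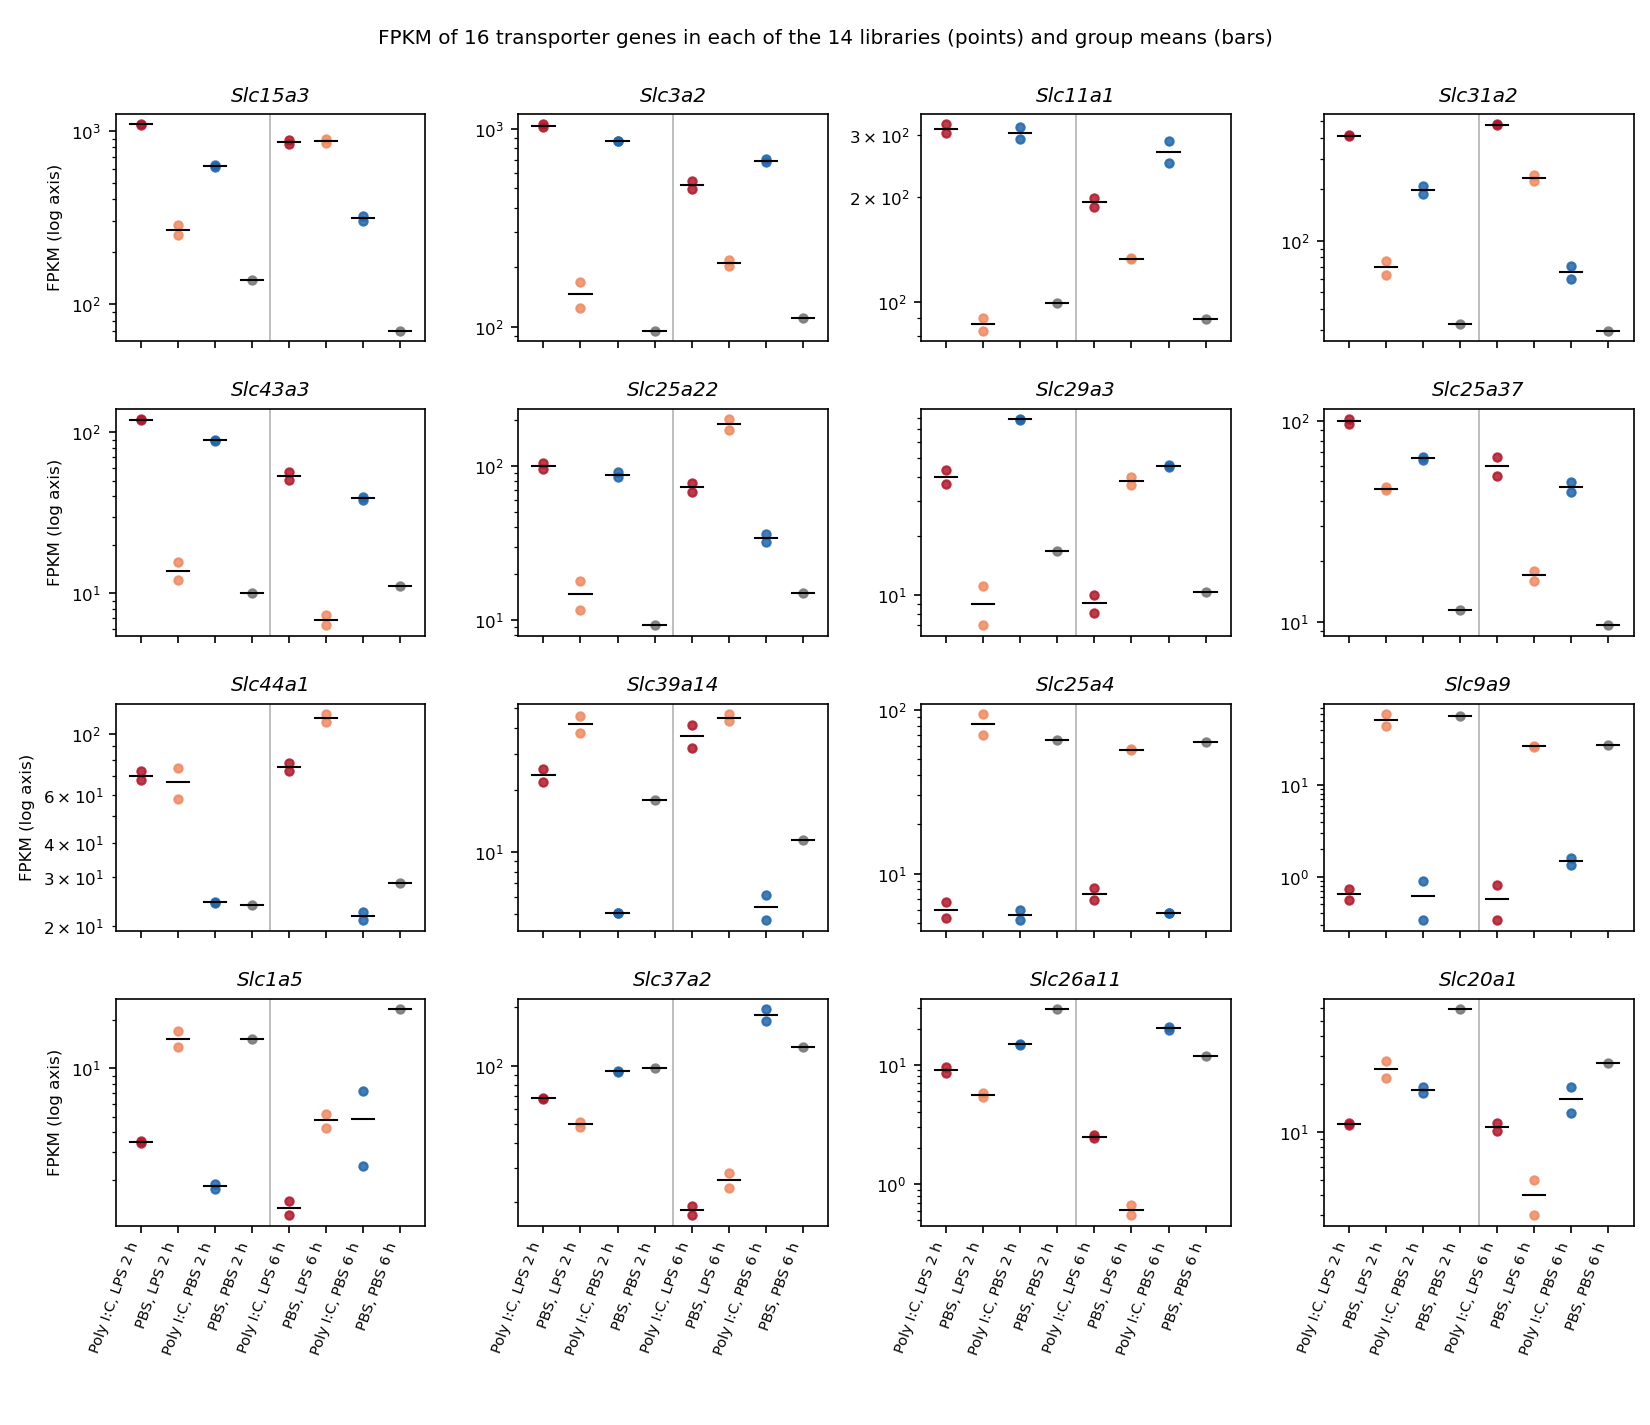
FPKM on log axes of 16 transporter genes in each of the 14 libraries (points) with group means (bars), 2 h left and 6 h right of the grey line in each panel. Slc25a4 and Slc9a9 are lower in all libraries with Poly I:C first than in all with PBS first, and Slc3a2 is higher in all of them; Slc44a1 and Slc39a14 are highest in the LPS groups.

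Metal carriers. Of 16 metal carriers, LPS at 6 h left 8 higher and 3 lower after Poly I:C, and 10 higher and 2 lower after PBS. Those shares were 50% and 18.8% after Poly I:C and 62.5% and 12.5% after PBS. These counts are descriptive. They include Slc30a6, counted higher after either first stimulus, which reached 10 FPKM only in libraries with LPS and may have been chosen by that height. Over all tested entries the shares were 21.7% higher and 22.2% lower after Poly I:C, and 22.9% and 20.6% after PBS. Entries past the FPKM rule had 28.3% and 23% after Poly I:C, and 32.8% and 17.9% after PBS. Poly I:C before LPS left 7 higher and 5 lower at 2 h, and 3 higher and 7 lower at 6 h. Those shares were 43.8% and 31.2% at 2 h and 18.8% and 43.8% at 6 h. Entries past the FPKM rule had 37.5% and 29.7% at 2 h, and 24.8% and 32.8% at 6 h. Over all tested entries the shares were 32.6% higher and 28.5% lower at 2 h, and 23.7% and 25.9% at 6 h. Slc31a2 (CTR2, chr4:62262017-62299673), which acts in copper handling of endosomes and lysosomes, was at 418 and 409 FPKM in Poly I:C-LPS cells, 76.6 and 63.1 in PBS-LPS cells, 209 and 187 in Poly I:C-PBS cells and 32.5 in the PBS-PBS library at 2 h. At 6 h Slc31a2 was at 474 and 481 FPKM in Poly I:C-LPS cells, 224 and 242 in PBS-LPS cells, 71.2 and 59.6 in Poly I:C-PBS cells and 29.8 in the PBS-PBS library. Poly I:C-LPS libraries were the highest and the PBS-PBS library the lowest at both times. Limma gave log2 fold change 2.55, SE 0.13, adjusted p = 1.1e-07 for Poly I:C before LPS at 2 h and log2 fold change 1.03, SE 0.13, adjusted p = 0.000107 at 6 h. The LPS effect was 1.06 and 2.85 after Poly I:C and 1.08 and 2.93 after PBS, at 2 h and 6 h in turn. Another tested entry named Slc31a2 overlaps this locus and did not pass the FPKM rule. The Slc31a2 values given are of the entry that passed. Slc31a1 (CTR1), the copper importer of the plasma membrane 61053 bases away on chromosome 4, had LPS effects at 6 h of 1.28 after Poly I:C and 1.55 after PBS (adjusted p = 4.16e-05 and 4.88e-05).

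Slc11a1 (Nramp1, chr1:74375133-74386099), which removes iron and manganese from the phagosome, was at 304 and 321 FPKM in Poly I:C-LPS cells, 90.2 and 82.99 in PBS-LPS cells, 316 and 291 in Poly I:C-PBS cells and 99.4 in the PBS-PBS library at 2 h. In the 6 h libraries it stood at 198 and 186 FPKM in Poly I:C-LPS cells, 133 and 133 in PBS-LPS cells, 248.9 and 289 in Poly I:C-PBS cells and 89.7 in the PBS-PBS library. Both Poly I:C groups were above both PBS groups at each time. Ahead of LPS, Poly I:C gave log2 fold change 1.84, SE 0.11, adjusted p = 3.53e-07 at 2 h and log2 fold change 0.53, SE 0.11, adjusted p = 0.00282 at 6 h, in limma. The related Slc11a2 (DMT1), the iron importer of plasma membrane and endosomes, was at 73.9 and 63.8 FPKM in Poly I:C-LPS cells, 123 and 139 in PBS-LPS cells, 16.1 and 11.3 in Poly I:C-PBS cells and 23.2 in the PBS-PBS library at 6 h. Its LPS effect at 6 h was 2.26 after Poly I:C and 2.45 after PBS, and Poly I:C before LPS gave log2 fold change -0.92, SE 0.20, adjusted p = 0.00321, in limma.

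Zinc is brought to the cytosol by Slc39 carriers and removed from it by Slc30 carriers. Slc39a14 (ZIP14), an importer of zinc and non-transferrin iron, was at 21.8 and 25.2 FPKM in Poly I:C-LPS cells, 37.6 and 45.6 in PBS-LPS cells, 5.002 and 5.01 in Poly I:C-PBS cells and 17.8 in the PBS-PBS library at 2 h and at 41.1 and 31.9 FPKM in Poly I:C-LPS cells, 46.7 and 43.05 in PBS-LPS cells, 4.63 and 6.14 in Poly I:C-PBS cells and 11.4 in the PBS-PBS library at 6 h. Poly I:C-PBS libraries were the lowest and the LPS groups the highest at both times. Without LPS, Poly I:C lowered Slc39a14 (log2 fold change -1.64, SE 0.20, adjusted p = 0.000103 at 2 h), and LPS gave 2.03 and 2.55 after Poly I:C and 1.18 and 1.89 after PBS, at 2 h and 6 h in turn, in limma. Slc39a1 (ZIP1), a zinc importer whose promoter window is printed above, was at 98.8 and 95.7 FPKM in Poly I:C-LPS cells, 141 and 144 in PBS-LPS cells, 49.5 and 49.98 in Poly I:C-PBS cells and 59.9 in the PBS-PBS library at 6 h, with LPS effects of 0.95 after Poly I:C and 1.24 after PBS. Slc30a1 (ZnT1), the zinc exporter of the plasma membrane, was at 1.88 and 2.07 FPKM in Poly I:C-LPS cells, 13.3 and 14.99 in PBS-LPS cells, 7.88 and 5.86 in Poly I:C-PBS cells and 6.52 in the PBS-PBS library at 6 h. Poly I:C-LPS cells were the lowest group there (a descriptive log2 fold change of -2.35 against PBS-LPS cells, in limma). The Golgi zinc carrier Slc30a7 was higher with LPS at 6 h, with log2 fold changes of 0.57 after Poly I:C and 1.08 after PBS. Slc30a6, also of the Golgi, reached 10 FPKM only in libraries with LPS. Its descriptive log2 fold changes for LPS at 6 h were 0.87 after Poly I:C and 0.58 after PBS. Slc30a5 was lower with LPS after PBS at 6 h (-1.40). Slc39a13 and Slc39a9 have exons overlapped on the opposite strand by Psmc3 (77.95 to 127 FPKM) and Erh (21.97 to 93.3 FPKM), both more abundant than the carrier, so their own levels of 12.98 to 29.5 and 6.28 to 14.05 FPKM are uncertain.

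Mitochondrial carriers. Of 20 Slc25 genes, 8 were higher and 2 lower in Poly I:C-LPS than in PBS-LPS cells at 2 h, and 4 higher and 7 lower at 6 h. The shares were 40% and 10% and 20% and 35% in turn. The counts are descriptive. Slc25a33 and Slc25a38, counted higher at both times, reached 10 FPKM only with Poly I:C first, and Slc25a4, counted lower, only with PBS first. Entries past the FPKM rule had 37.5% and 29.7% at 2 h and 24.8% and 32.8% at 6 h, near the carriers' shares except for the few lower at 2 h. Over all tested entries the shares were 32.6% higher and 28.5% lower at 2 h, and 23.7% and 25.9% at 6 h. Without LPS, Poly I:C left 8 higher and 5 lower at 2 h and 6 higher and 3 lower at 6 h. Those shares were 40% and 25% at 2 h and 30% and 15% at 6 h. Entries past the FPKM rule had 31.6% and 23.7% at 2 h, and 24.6% and 17.3% at 6 h. All tested entries had 24.9% higher and 22.4% lower at 2 h, and 18.4% and 16.1% at 6 h. Slc25a4 (ANT1, chr8:46206797-46211284) exchanges mitochondrial ATP for cytosolic ADP. At 2 h it was at 6.67 and 5.38 FPKM in Poly I:C-LPS cells, 93.9 and 70.03 in PBS-LPS cells, 5.18 and 5.96 in Poly I:C-PBS cells and 64.9 in the PBS-PBS library. Levels at 6 h were 6.94 and 8.17 FPKM in Poly I:C-LPS cells, 57.5 and 56.6 in PBS-LPS cells, 5.75 and 5.75 in Poly I:C-PBS cells and 63.3 in the PBS-PBS library. The highest library with Poly I:C first, at 8.17 FPKM, was far below the lowest with PBS first, at 56.6 FPKM, so the PBS libraries alone chose it. Against PBS-LPS cells, Poly I:C-LPS cells gave a descriptive log2 fold change of -3.55 at 2 h and a descriptive log2 fold change of -2.77 at 6 h, in limma, and without LPS the log2 fold changes were -3.33 and -3.25. LPS effects on Slc25a4 were called at neither time after either first stimulus. The phosphate carrier Slc25a3, the most abundant of the 20, ranged over 138 to 261 FPKM.

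Slc25a22 (GC1), a glutamate carrier, was at 96.04 and 105 FPKM in Poly I:C-LPS cells, 17.8 and 11.5 in PBS-LPS cells, 91.1 and 85.1 in Poly I:C-PBS cells and 9.22 in the PBS-PBS library at 2 h. Its 6 h levels were 78.2 and 68.3 FPKM in Poly I:C-LPS cells, 171 and 202 in PBS-LPS cells, 32.2 and 35.96 in Poly I:C-PBS cells and 15.02 in the PBS-PBS library. Poly I:C groups were the highest at 2 h and PBS-LPS cells at 6 h. In limma Poly I:C before LPS gave log2 fold change 2.72, SE 0.18, adjusted p = 6.68e-07 at 2 h and log2 fold change -1.33, SE 0.18, adjusted p = 0.000168 at 6 h. The LPS effect at 6 h was 1.08 after Poly I:C and 3.54 after PBS, a difference of -2.46 (adjusted p = 0.000147). The aspartate and glutamate carrier Slc25a12 (Aralar) was at 25.3 and 25.5 FPKM in Poly I:C-LPS cells, 69.6 and 86.5 in PBS-LPS cells, 14.5 and 14.3 in Poly I:C-PBS cells and 18.1 in the PBS-PBS library at 6 h, also highest in PBS-LPS cells, with log2 fold change -1.57, SE 0.13, adjusted p = 7.15e-06 for Poly I:C before LPS.

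Iron enters the mitochondrial matrix for haem and iron-sulphur clusters through the mitoferrins. Slc25a37 (mitoferrin-1) was at 97.2 and 102 FPKM in Poly I:C-LPS cells, 45.3 and 46.6 in PBS-LPS cells, 64.2 and 66.1 in Poly I:C-PBS cells and 11.5 in the PBS-PBS library at 2 h and at 66.5 and 53.5 FPKM in Poly I:C-LPS cells, 16.02 and 17.9 in PBS-LPS cells, 49.6 and 44.2 in Poly I:C-PBS cells and 9.57 in the PBS-PBS library at 6 h. The PBS-PBS library was the lowest and Poly I:C-LPS libraries the highest at both times. Against PBS-LPS cells, Poly I:C-LPS cells gave log2 fold change 1.10, SE 0.13, adjusted p = 3.35e-05 at 2 h and log2 fold change 1.76, SE 0.13, adjusted p = 2.72e-06 at 6 h, in limma. LPS after PBS gave 1.91 at 2 h, and Poly I:C without LPS 2.41 at 2 h and 2.18 at 6 h. Slc25a28 (mitoferrin-2) was at 15.6 and 14.1 FPKM in Poly I:C-LPS cells, 17.7 and 11.1 in PBS-LPS cells, 37.95 and 38.6 in Poly I:C-PBS cells and 18.8 in the PBS-PBS library at 2 h, highest in Poly I:C-PBS cells, and LPS after Poly I:C gave log2 fold change -1.31, SE 0.21, adjusted p = 0.00153. Slc25a38, a glycine carrier for haem synthesis, reached 10 FPKM only in libraries with Poly I:C first. Against PBS-LPS cells, its descriptive log2 fold changes in Poly I:C-LPS cells were 1.16 at 2 h and 0.67 at 6 h.

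The other mitochondrial carriers move dicarboxylates, acylcarnitines and nucleotides. Slc25a10, which exchanges malate and succinate for phosphate, was at 50.7 and 48.02 FPKM in Poly I:C-LPS cells, 47.99 and 44.3 in PBS-LPS cells, 13.6 and 13.3 in Poly I:C-PBS cells and 29.2 in the PBS-PBS library at 6 h. LPS after Poly I:C gave log2 fold change 1.80, SE 0.11, adjusted p = 8.25e-07, and Poly I:C without LPS log2 fold change -1.07, SE 0.14, adjusted p = 0.000219, in limma. The acylcarnitine carrier Slc25a20 was higher with Poly I:C alone, by 0.89 at 2 h and 1.33 at 6 h. The pyrimidine nucleotide carrier Slc25a33 reached 10 FPKM only in libraries with Poly I:C first. Its descriptive log2 fold changes with Poly I:C alone were 1.59 at 2 h and 1.37 at 6 h. Slc25a24, an ATP-magnesium and phosphate carrier, was at 3.6 and 4.4 FPKM in Poly I:C-LPS cells, 18.2 and 19.2 in PBS-LPS cells, 17.2 and 15.97 in Poly I:C-PBS cells and 25.2 in the PBS-PBS library at 6 h, lowest in Poly I:C-LPS cells (-1.98 on the log2 scale against PBS-LPS cells). Slc25a45 was also lowest there, with -1.09 in the same comparison, while the peroxisomal carrier Slc25a17 was higher (0.74). The citrate carrier Slc25a1 ranged over 22.8 to 66.05 FPKM, the glutathione carrier Slc25a39 over 54.45 to 127 and Slc25a44, a carrier of branched-chain amino acids, over 8.36 to 14.6.

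Nucleoside and nucleobase carriers. Slc29a3 (ENT3, chr10:60711911-60752831) releases nucleosides from lysosomes, Slc29a1 (ENT1) carries them over the plasma membrane, and Slc43a3 carries purine nucleobases. Slc29a3 was at 43.2 and 36.6 FPKM in Poly I:C-LPS cells, 6.99 and 11.1 in PBS-LPS cells, 78.6 and 78.3 in Poly I:C-PBS cells and 16.8 in the PBS-PBS library at 2 h. At 6 h Slc29a3 was at 9.99 and 8.09 FPKM in Poly I:C-LPS cells, 36.4 and 39.8 in PBS-LPS cells, 46.2 and 45.03 in Poly I:C-PBS cells and 10.4 in the PBS-PBS library. Poly I:C-PBS libraries were the highest at both times, and at 6 h Poly I:C-LPS libraries, at or under 9.99 FPKM, were below the single PBS-PBS library. Set before LPS, Poly I:C gave log2 fold change 2.05, SE 0.18, adjusted p = 6.16e-06 at 2 h and log2 fold change -1.97, SE 0.18, adjusted p = 1.56e-05 at 6 h, in limma. LPS at 6 h gave -2.22 after Poly I:C and 1.78 after PBS, and the difference of -4.00 (SE 0.29, adjusted p = 8.5e-06) was the largest in size among the 95 genes.

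Slc43a3 was at 119 and 120.5 FPKM in Poly I:C-LPS cells, 12.03 and 15.6 in PBS-LPS cells, 89.95 and 88.1 in Poly I:C-PBS cells and 10.1 in the PBS-PBS library at 2 h and at 50.3 and 56.5 FPKM in Poly I:C-LPS cells, 7.37 and 6.33 in PBS-LPS cells, 38.2 and 39.8 in Poly I:C-PBS cells and 11.04 in the PBS-PBS library at 6 h. All libraries with Poly I:C first were above all with PBS first. Ahead of LPS, Poly I:C gave log2 fold change 3.04, SE 0.13, adjusted p = 4.85e-08 at 2 h and log2 fold change 2.79, SE 0.13, adjusted p = 2.93e-07 at 6 h, in limma. Slc29a1 ran the other way: it was at 14.02 and 15.4 FPKM in Poly I:C-LPS cells, 42.9 and 40.8 in PBS-LPS cells, 15.1 and 13.8 in Poly I:C-PBS cells and 43.2 in the PBS-PBS library at 2 h, with log2 fold change -1.45, SE 0.11, adjusted p = 1.77e-06 before LPS and log2 fold change -1.52, SE 0.13, adjusted p = 9.09e-06 without LPS.

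Nucleotide sugar and related carriers. These Slc35 genes supply Golgi and endoplasmic reticulum with the building blocks of glycans, and 4 of 11 were higher and 4 lower in Poly I:C-LPS than in PBS-LPS cells at 2 h, 3 and 3 at 6 h. The shares were 36.4% and 36.4% at 2 h and 27.3% and 27.3% at 6 h. Slc35b3, counted higher at both times, reached 10 FPKM only with Poly I:C first, so these counts are descriptive. Entries past the FPKM rule had 37.5% and 29.7% at 2 h and 24.8% and 32.8% at 6 h. All tested entries had 32.6% higher and 28.5% lower at 2 h, and 23.7% and 25.9% at 6 h. Slc35f5 was at 11.2 and 10.1 FPKM in Poly I:C-LPS cells, 29.7 and 27.5 in PBS-LPS cells, 29.1 and 28.1 in Poly I:C-PBS cells and 15.6 in the PBS-PBS library at 6 h. LPS gave log2 fold change -1.35, SE 0.13, adjusted p = 1.7e-05 after Poly I:C and log2 fold change 0.83, SE 0.16, adjusted p = 0.00185 after PBS, in limma. These effects were -2.18 apart (adjusted p = 4.28e-05). Slc35b4, a carrier of UDP-xylose and UDP-N-acetylglucosamine, was at 3.82 and 4.72 FPKM in Poly I:C-LPS cells, 11.1 and 14.3 in PBS-LPS cells, 6.36 and 5.43 in Poly I:C-PBS cells and 17.5 in the PBS-PBS library at 2 h, lower in all Poly I:C than in all PBS libraries (-1.37 before LPS as a descriptive log2 fold change). Slc35c1, the GDP-fucose carrier, had a descriptive log2 fold change of 1.45 in Poly I:C-LPS against PBS-LPS cells at 6 h. Slc35b3, which carries the sulphate donor PAPS, reached 10 FPKM only in libraries with Poly I:C first. Its descriptive log2 fold change in that comparison was 0.73 at 2 h. Slc35c2 was lower with LPS at 6 h, by log2 fold changes of -1.60 after Poly I:C and -1.53 after PBS. Slc35e4 was lower in Poly I:C-LPS than in PBS-LPS cells at 2 h (log2 fold change -1.80, SE 0.17, adjusted p = 1.02e-05), as were Slc35b1, an ATP and ADP exchanger of the endoplasmic reticulum, and Slc35a4 (-0.61 and -0.57). The UDP-galactose carrier Slc35a2 ranged over 10.35 to 20.9 FPKM and Slc35a5 over 2.74 to 18.96, with no call in any pairwise comparison.

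Sugar and sugar phosphate carriers. Slc37a2 (chr9:37226150-37255738), an exchanger of glucose-6-phosphate and phosphate in the endoplasmic reticulum, was at 67.6 and 68.6 FPKM in Poly I:C-LPS cells, 48.8 and 51.4 in PBS-LPS cells, 92.9 and 94.2 in Poly I:C-PBS cells and 97.1 in the PBS-PBS library at 2 h. In the 6 h libraries it stood at 19.3 and 17.2 FPKM in Poly I:C-LPS cells, 28.3 and 23.8 in PBS-LPS cells, 169 and 195 in Poly I:C-PBS cells and 124 in the PBS-PBS library. The LPS groups did not overlap the PBS groups at 6 h. LPS at 6 h gave log2 fold change -3.25, SE 0.12, adjusted p = 5.39e-08 after Poly I:C and log2 fold change -2.21, SE 0.15, adjusted p = 1.13e-06 after PBS, in limma. Slc2a8 (GLUT8), a glucose transporter of intracellular membranes, was at 2.56 and 2.39 FPKM in Poly I:C-LPS cells, 15.8 and 12.96 in PBS-LPS cells, 3.11 and 3.42 in Poly I:C-PBS cells and 13.1 in the PBS-PBS library at 2 h, and Poly I:C without LPS gave a descriptive log2 fold change of -1.73. Slc50a1, a SWEET-type sugar carrier, was higher with Poly I:C alone at 6 h (0.96) and lower with LPS after Poly I:C (-0.83). Slc37a3 ranged over 2.54 to 13.1 FPKM and Slc45a4 over 1.46 to 11.15 FPKM.

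Proton and inorganic ion carriers. Slc9a9 (NHE9, chr9:94669909-95230696) is a sodium and proton exchanger of recycling endosomes. At 2 h it was at 0.552 and 0.734 FPKM in Poly I:C-LPS cells, 43.9 and 59.8 in PBS-LPS cells, 0.909 and 0.335 in Poly I:C-PBS cells and 56.9 in the PBS-PBS library. Levels at 6 h were 0.34 and 0.805 FPKM in Poly I:C-LPS cells, 26.7 and 26.4 in PBS-LPS cells, 1.34 and 1.61 in Poly I:C-PBS cells and 27.8 in the PBS-PBS library. Its highest library with Poly I:C first, at 1.61 FPKM, was below its lowest with PBS first, at 26.4 FPKM, so the PBS libraries alone chose it. In limma Poly I:C before LPS gave a descriptive log2 fold change of -4.99 at 2 h and a descriptive log2 fold change of -4.15 at 6 h, and without LPS -5.18 and -3.54. On this scale the pseudocount limits such falls: with 0.1 the values before LPS were -6.12 at 2 h and -5.40 at 6 h, and without LPS -6.43 and -4.15. The Golgi exchanger Slc9a8 (NHE8) was higher in Poly I:C-LPS than in PBS-LPS cells, by 1.36 at 2 h and, as a descriptive log2 fold change, 1.10 at 6 h.

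The potassium and chloride cotransporters Slc12a4 (KCC1) and Slc12a7 (KCC4) act in cell volume control. Slc12a7 was at 2.1 and 2.14 FPKM in Poly I:C-LPS cells, 22.2 and 28.3 in PBS-LPS cells, 3.3 and 3.16 in Poly I:C-PBS cells and 12.2 in the PBS-PBS library at 6 h, and Slc12a4 was at 13.03 and 12.1 FPKM in Poly I:C-LPS cells, 33.8 and 43.2 in PBS-LPS cells, 6.01 and 9.16 in Poly I:C-PBS cells and 17.9 in the PBS-PBS library. PBS-LPS libraries were the highest of both. Against PBS-LPS cells, Poly I:C-LPS cells gave a descriptive log2 fold change of -3.06 for Slc12a7 and log2 fold change -1.53, SE 0.20, adjusted p = 0.000149 for Slc12a4, in limma. The chloride and bicarbonate exchanger Slc4a2 (AE2) was higher with LPS at 6 h (1.06 after Poly I:C, 0.92 after PBS), and the sodium bicarbonate carrier Slc4a7 after Poly I:C (a descriptive log2 fold change of 2.50). Slc8b1 (NCLX), the sodium and calcium exchanger of mitochondria, was at 13.2 and 11.7 FPKM in Poly I:C-LPS cells, 29.2 and 34.9 in PBS-LPS cells, 34.2 and 30.3 in Poly I:C-PBS cells and 17.98 in the PBS-PBS library at 6 h (log2 fold change -1.29, SE 0.13, adjusted p = 2.75e-05 for Poly I:C-LPS against PBS-LPS cells). Its levels of 45.4 and 17.98 FPKM in the PBS-PBS libraries of 2 h and 6 h are far apart, and LPS after PBS at 6 h, called with the 6 h control, was not called with both as 1 control (0.15, adjusted p = 0.718).

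Slc26a11, a sulphate and chloride carrier, was at 8.47 and 9.54 FPKM in Poly I:C-LPS cells, 5.41 and 5.82 in PBS-LPS cells, 15.01 and 14.5 in Poly I:C-PBS cells and 29.2 in the PBS-PBS library at 2 h and at 2.57 and 2.42 FPKM in Poly I:C-LPS cells, 0.552 and 0.677 in PBS-LPS cells, 19.4 and 20.8 in Poly I:C-PBS cells and 11.7 in the PBS-PBS library at 6 h. The LPS groups were below their PBS groups at both times. LPS after Poly I:C gave a descriptive log2 fold change of -0.66 at 2 h and a descriptive log2 fold change of -2.59 at 6 h, in limma. After PBS the descriptive log2 fold changes were -2.19 and -2.98, and with both PBS-PBS libraries as 1 control -1.57 and -3.60. Slc20a1 (PiT1), a sodium and phosphate cotransporter, was at 11.02 and 11.4 FPKM in Poly I:C-LPS cells, 22 and 28.1 in PBS-LPS cells, 19.1 and 17.5 in Poly I:C-PBS cells and 59.4 in the PBS-PBS library at 2 h and at 11.4 and 10.2 FPKM in Poly I:C-LPS cells, 5.02 and 3.0 in PBS-LPS cells, 13.2 and 19.2 in Poly I:C-PBS cells and 27.3 in the PBS-PBS library at 6 h. Another tested entry named Slc20a1 overlaps this locus and did not pass the FPKM rule, so the values given are of the entry that passed. In limma, Poly I:C-LPS cells were below PBS-LPS cells at 2 h (log2 fold change -1.09, SE 0.22, adjusted p = 0.00158) and above them at 6 h (log2 fold change 1.26, SE 0.22, adjusted p = 0.000894). LPS after PBS at 6 h gave log2 fold change -2.53, SE 0.27, adjusted p = 3.54e-05, in limma.

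Vitamin, haem and choline carriers. Slc44a1 (CTL1, chr4:53440413-53622490) takes up choline for phosphatidylcholine. It was at 67.7 and 72.96 FPKM in Poly I:C-LPS cells, 58.04 and 75.3 in PBS-LPS cells, 24.4 and 24.3 in Poly I:C-PBS cells and 23.9 in the PBS-PBS library at 2 h and at 78.5 and 73.2 FPKM in Poly I:C-LPS cells, 110.4 and 118 in PBS-LPS cells, 22.5 and 20.9 in Poly I:C-PBS cells and 28.5 in the PBS-PBS library at 6 h. Every LPS library was above every library without LPS. LPS gave log2 fold change 1.49, SE 0.13, adjusted p = 2.68e-05 after Poly I:C and log2 fold change 1.43, SE 0.16, adjusted p = 0.000166 after PBS at 2 h, and 1.76 and 1.96 at 6 h, in limma. Slc48a1 (HRG1) moves haem out of phagolysosomes after red cells are taken up, and was at 30.3 and 32.5 FPKM in Poly I:C-LPS cells, 99.5 and 81.02 in PBS-LPS cells, 32.5 and 38.1 in Poly I:C-PBS cells and 97.3 in the PBS-PBS library at 2 h and 21.4 and 22.6 FPKM in Poly I:C-LPS cells, 70.3 and 61.3 in PBS-LPS cells, 46.5 and 53.9 in Poly I:C-PBS cells and 94.02 in the PBS-PBS library at 6 h. Both Poly I:C groups were below both PBS groups at each time. Against PBS-LPS cells, Poly I:C-LPS cells gave log2 fold change -1.49, SE 0.14, adjusted p = 8.57e-06 and log2 fold change -1.54, SE 0.14, adjusted p = 1.3e-05 at 2 h and 6 h.

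Slc23a2 (SVCT2), the ascorbate carrier, was at 16.8 and 14.5 FPKM in Poly I:C-LPS cells, 49.95 and 48.01 in PBS-LPS cells, 35.6 and 39.6 in Poly I:C-PBS cells and 20.7 in the PBS-PBS library at 6 h. LPS gave log2 fold change -1.22, SE 0.23, adjusted p = 0.00175 after Poly I:C and log2 fold change 1.20, SE 0.28, adjusted p = 0.00627 after PBS, in limma, effects that were -2.42 apart (adjusted p = 0.000863). The choline carrier relative Slc44a2 was at 7.42 and 8.3 FPKM in Poly I:C-LPS cells, 25.8 and 31.4 in PBS-LPS cells, 12.3 and 14.96 in Poly I:C-PBS cells and 11.7 in the PBS-PBS library at 6 h, again highest in PBS-LPS cells (log2 fold change -1.74, SE 0.19, adjusted p = 4.7e-05 for Poly I:C before LPS). Slc46a1, a proton-coupled folate carrier, ranged over 1.56 to 24.8 FPKM, highest in Poly I:C-PBS cells at 6 h, and LPS after PBS at 6 h gave a descriptive log2 fold change of -1.53.

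Monocarboxylate, fatty acid and organic ion carriers. Slc27a1 (FATP1), which promotes fatty acid uptake, was at 59.1 and 59.8 FPKM in Poly I:C-LPS cells, 56.9 and 64.5 in PBS-LPS cells, 158 and 155 in Poly I:C-PBS cells and 92.3 in the PBS-PBS library at 6 h. LPS lowered it more after Poly I:C (log2 fold change -1.38, SE 0.12, adjusted p = 6.33e-06) than after PBS (log2 fold change -0.60, SE 0.14, adjusted p = 0.00627), with a difference of -0.78 (adjusted p = 0.00994), in limma. Slc17a5 (sialin), which exports sialic acid from lysosomes, was at 5.71 and 7.72 FPKM in Poly I:C-LPS cells, 10.97 and 14.3 in PBS-LPS cells, 10.8 and 13 in Poly I:C-PBS cells and 25.8 in the PBS-PBS library at 2 h and at 4.18 and 3.77 FPKM in Poly I:C-LPS cells, 10.1 and 8.45 in PBS-LPS cells, 11.97 and 12.6 in Poly I:C-PBS cells and 19.2 in the PBS-PBS library at 6 h. Poly I:C-LPS libraries were the lowest and the PBS-PBS library the highest at each time. Set before LPS, Poly I:C gave log2 fold change -0.82, SE 0.18, adjusted p = 0.0023 at 2 h and log2 fold change -1.04, SE 0.18, adjusted p = 0.000764 at 6 h. Slc16a10 (TAT1), a carrier of aromatic amino acids, was higher in Poly I:C-LPS than in PBS-LPS cells at 2 h (1.00). Slc22a29 is an organic ion carrier relative with near-identical copies whose reads may be shared. It reached 10 FPKM only in libraries with Poly I:C first. In the same comparison its descriptive log2 fold changes were 1.61 at 2 h and 0.89 at 6 h. Slc13a3 (NaDC3), which takes up succinate and other dicarboxylates, was at 0.706 and 0.248 FPKM in Poly I:C-LPS cells, 15.3 and 15.1 in PBS-LPS cells, 0.319 and 0.168 in Poly I:C-PBS cells and 1.48 in the PBS-PBS library at 6 h. It reached the FPKM rule in the PBS-LPS libraries of 6 h alone, so its height there chose it and no p is given, though it is among the 41 carriers counted lower with Poly I:C before LPS and the 37 counted higher with LPS after PBS at 6 h.

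Whether Poly I:C changed the LPS effect was tested directly, as the LPS effect after Poly I:C minus that after PBS. At 2 h this difference was called with 3 of the 95 genes higher and 3 lower, against 2.52% higher and 1.77% lower over all 11977 tested entries. At 6 h it was called with 12 of the 95 genes higher and 28 lower, against 12.7% higher and 16.7% lower over all 11977 tested entries. Among genes meeting the rule at the other time, they were 3 higher and 3 lower of 85 and 11 higher and 26 lower of 85. No particular side of either stimulus was asked for there. The counts at 2 h changed with single libraries left out: without PBS-LPS replicate 2 they were 11 and 6, and without Poly I:C-PBS replicate 2 they were 1 and 1; without Poly I:C-LPS replicate 2, and with libraries of that time alone, 1 was lower. Of the tested entries past the same FPKM rule, 12.4% were higher and 23.7% lower at 6 h, beside 12.6% and 29.5% of the carriers. Their shares at 2 h were 2.82% and 2.73%, beside 3.16% and 3.16% of the carriers. At 6 h, LPS effects of Slc25a20, Slc29a3, Slc35f5 and Slc23a2 were called lower after Poly I:C and higher after PBS, with each call holding in every setting tried.

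**Figure D5:**
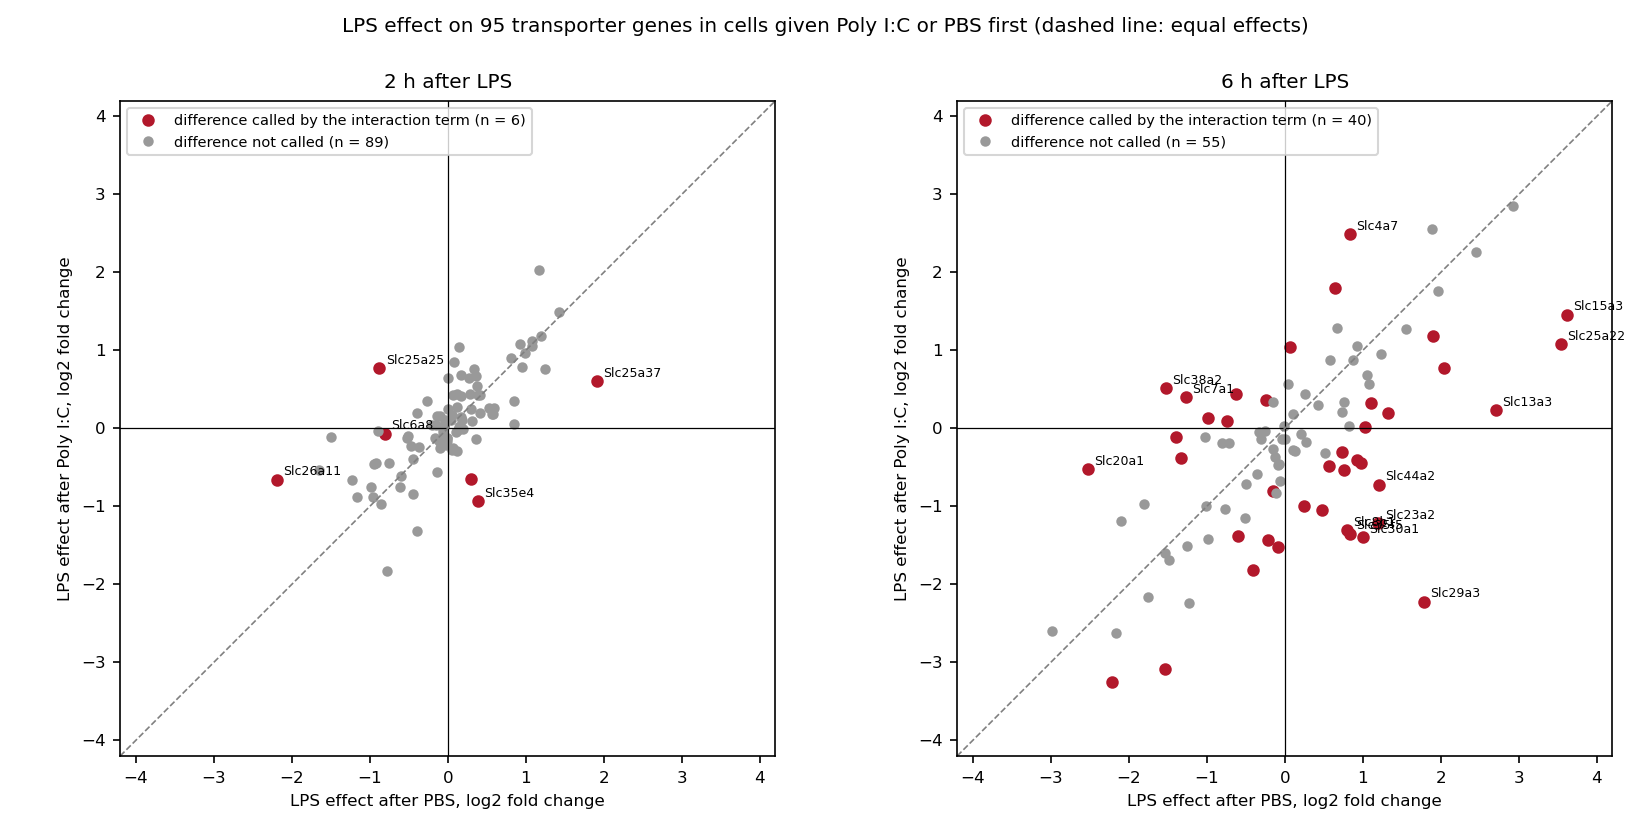
LPS effect after Poly I:C (y axis) against LPS effect after PBS (x axis), both as limma log2 fold changes, for the 95 genes at 2 h (left) and 6 h (right). Red points are genes whose difference was called, 6 at 2 h and 40 at 6 h; points below the dashed line had a lower LPS effect after Poly I:C, with Slc29a3 furthest from it at -4.00.

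The rest of the family was read beside these genes. The 70 other tested single-name Slc entries, with a median mean of 2.52 FPKM, had 16 higher and 24 lower in Poly I:C-LPS than in PBS-LPS cells at 2 h, and 20 higher and 14 lower at 6 h. That is 22.9% and 34.3% at 2 h and 28.6% and 20% at 6 h. These 70 include the further entries named Slc31a2 and Slc20a1. Over all tested entries the shares were 32.6% higher and 28.5% lower at 2 h, and 23.7% and 25.9% at 6 h. LPS at 6 h left 8 of them higher and 20 lower after Poly I:C, and 6 higher and 29 lower after PBS. All tested entries had there 21.7% higher and 22.2% lower after Poly I:C, and 22.9% and 20.6% after PBS. Of 22 tested genes of solute carrier families that carry no Slc symbol, such as the mitochondrial pyruvate carrier Mpc1, 3 were higher and 10 lower in Poly I:C-LPS than in PBS-LPS cells at 6 h, and LPS after Poly I:C left 5 higher and 12 lower. The shares were 13.6% and 45.5%, and 22.7% and 54.5% in turn. All tested entries had 23.7% higher and 25.9% lower in the first comparison, and 21.7% and 22.2% in the other. A further 13 entries that name an Slc gene together with other genes passed the FPKM rule and are not among the 95, since their fragments cannot be assigned to 1 gene.

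Of the carriers not named so far, Slc25a25, which exchanges ATP-magnesium for phosphate in mitochondria, ranged over 4.26 to 16.4 FPKM. LPS after PBS at 6 h gave a descriptive log2 fold change of 0.83. The mitochondrial Slc25a30 ranged over 2.57 to 15.03 FPKM, with a descriptive LPS effect after PBS at 6 h of -1.48. The zinc carriers Slc39a11 and Slc39a6 ranged over 8.36 to 21.3 and 6.70 to 19.9 FPKM, and both were lower in Poly I:C-LPS than in PBS-LPS cells at 2 h (-0.35 and -0.62). Slc30a9 ranged over 11.1 to 19.6 FPKM, Slc35e1 over 8.62 to 17.8 and Slc27a4 (FATP4) over 7.76 to 15.4.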

How the data were processed

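RNA was sequenced from 14 libraries in 8 groups on a stranded polyadenylated RNA protocol, paired-end, per the labels' protocols. The FPKM values were deposited by the authors and made with TopHat2, Cufflinks and Cuffnorm, per the submitters' processing notes. The notes name the mm9 build, but the loci of 95 of 95 genes overlapped the gene of their name on GRCm38, so coordinates are given on that build. Fragment counts are not used here.

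The genes were taken by symbol and FPKM. The members and the lists were chosen with earlier results of these data known, and the entries past the same FPKM rule were added as a comparison after seeing the data. Entries with a name and at least 1 FPKM in 2 libraries, 11977 in all, were tested on log2(FPKM + 1) with limma 3.58.1 in R 4.3.3, with 8 group means, a trended prior, 6 residual degrees of freedom and Benjamini-Hochberg adjustment; fold changes on this scale understate those of low genes. A p is given only for a gene that met the FPKM rule in libraries outside the comparison, on both sides of the stimulus compared. For the interaction, the rule was asked at the other time, on no particular side. These limits were set after seeing the data. PBS-PBS groups hold 1 library each, so their spread is taken from the other groups. On simulated data with 11977 genes, Poly I:C before LPS at 2 h recovered 86% of changes of 1 and 99% of changes of 2 on the log2 scale, and Poly I:C alone at 2 h 69% and 98%. The changes, 100 of each size, were put only in genes over 5 FPKM in the reference group, with spread taken from the fit. Recovery in lower genes, or with as many changes as these data hold, was not simulated. Full statistics are limited to the 5 called genes of largest rise and fall per comparison whose libraries do not overlap, the 4 genes of highest level and the 4 of largest called change per class, and a set with known macrophage roles; other genes are given with levels or log2 changes. Alternatives were another pseudocount, filter, scaling, set of libraries, control and replicate block, and each library left out except the PBS-PBS ones. Those are single in their groups and were never left out. One gene of the 95 is counted but not reported by name, and 1 cell type marker list is not reported.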

Additional observations from a re-analysis of the deposited data

Results flagged for a closer look

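For 41 results given here the LPS effect after Poly I:C differed from the LPS effect after PBS by a limma interaction test with an adjusted p under 0.05 over all 11977 tested entries, 5 at 2 h and 36 at 6 h, in genes that met the 10 FPKM rule in libraries of the other time. Values are differences on the log2 scale, the effect after Poly I:C minus the effect after PBS, and each rests on 1 PBS-PBS library per time. The rule at the other time asked for no particular side of either stimulus. At 2 h, Slc12a7 met it only with PBS first and Slc30a1 only without LPS, so their 6 h differences are best read as descriptive.

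Of these calls 30 held in every setting tried. At 2 h the difference was -1.31 for Slc25a37. At 6 h the LPS effect was lower after Poly I:C for Slc29a3, the lysosomal nucleoside carrier, and for many others: the differences were -1.22 for Slc36a1, -1.32 for Slc3a2, -1.25 for Slc6a6, -1.13 for Slc7a8, -1.04 for Slc11a1, -2.40 for Slc30a1, -1.27 for Slc25a12, -1.30 for Slc25a20, -2.46 for Slc25a22, -1.41 for Slc25a24, -1.44 for Slc25a45, -0.78 for Slc27a1, -4.00 for Slc29a3, -2.18 for Slc35f5, -2.16 for Slc15a3, -1.52 for Slc15a4, -1.42 for Slc12a7, -2.10 for Slc8b1, -1.04 for Slc37a2, -2.42 for Slc23a2 and -1.93 for Slc44a2. It was higher after Poly I:C, among them for the glutamine carrier Slc38a2 and the phosphate carrier Slc20a1, with differences of 2.04 for Slc38a2, 1.67 for Slc7a1, 1.29 for Slc30a5, 1.16 for Slc25a10, 0.98 for Slc25a17, 1.06 for Slc43a3, 1.11 for Slc35c1 and 2.00 for Slc20a1.

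The other 11 lost their call in at least 1 setting. Slc6a8 at 2 h, with 0.74, was not called with a pseudocount of 0.1, the libraries of that time alone, both PBS-PBS libraries as 1 control or a replicate block or without PBS-LPS replicate 1, Poly I:C-PBS replicate 1, Poly I:C-PBS replicate 2, Poly I:C-LPS replicate 1 or Poly I:C-LPS replicate 2, where limma gave 0.47 to 0.79 (adjusted p = 0.0535 to 0.305). Slc25a25 at 2 h, with 1.65, was not called without Poly I:C-PBS replicate 2 or Poly I:C-LPS replicate 2, where limma gave 1.49 to 1.57 (adjusted p = 0.0591 to 0.0595). Slc35e4 at 2 h, with -1.32, was not called with no filter on low values or the libraries of that time alone or without Poly I:C-PBS replicate 2, Poly I:C-LPS replicate 1 or Poly I:C-LPS replicate 2, where limma gave -1.41 to -1.16 (adjusted p = 0.051 to 0.125). Slc26a11 at 2 h, with 1.54, was not called with both PBS-PBS libraries as 1 control, where limma gave 0.91 (adjusted p = 0.277). Slc7a7 at 6 h, with -0.72, was not called with no filter on low values or a replicate block or without PBS-LPS replicate 2, Poly I:C-PBS replicate 1, Poly I:C-PBS replicate 2, Poly I:C-LPS replicate 1 or Poly I:C-LPS replicate 2, where limma gave -0.80 to -0.63 (adjusted p = 0.0522 to 0.109). Slc39a11 at 6 h, with -0.65, was not called without PBS-LPS replicate 1, PBS-LPS replicate 2, Poly I:C-PBS replicate 2 or Poly I:C-LPS replicate 1, where limma gave -0.67 to -0.55 (adjusted p = 0.0519 to 0.0855).

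Slc39a13 at 6 h, with -0.77, was not called with no filter on low values or both PBS-PBS libraries as 1 control or without PBS-LPS replicate 1, PBS-LPS replicate 2, Poly I:C-PBS replicate 1, Poly I:C-PBS replicate 2, Poly I:C-LPS replicate 1 or Poly I:C-LPS replicate 2, where limma gave -0.83 to -0.54 (adjusted p = 0.0662 to 0.134). Slc39a6 at 6 h, with 0.96, was not called without PBS-LPS replicate 1, Poly I:C-PBS replicate 1 or Poly I:C-LPS replicate 1, where limma gave 0.91 to 0.92 (adjusted p = 0.0561 to 0.0666). Slc25a28 at 6 h, with -1.04, was not called with no filter on low values, both PBS-PBS libraries as 1 control or a replicate block or without PBS-LPS replicate 2, Poly I:C-PBS replicate 1, Poly I:C-PBS replicate 2, Poly I:C-LPS replicate 1 or Poly I:C-LPS replicate 2, where limma gave -1.14 to -0.77 (adjusted p = 0.0581 to 0.13). Slc16a10 at 6 h, with 0.60, was not called with both PBS-PBS libraries as 1 control or a replicate block or without PBS-LPS replicate 1, PBS-LPS replicate 2, Poly I:C-PBS replicate 2, Poly I:C-LPS replicate 1 or Poly I:C-LPS replicate 2, where limma gave 0.42 to 0.68 (adjusted p = 0.0511 to 0.152). Slc35e1 at 6 h, with 0.83, was not called with both PBS-PBS libraries as 1 control or without PBS-LPS replicate 1 or Poly I:C-LPS replicate 2, where limma gave 0.62 to 0.80 (adjusted p = 0.0523 to 0.0632).

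At 6 h, 11 genes had LPS effects called lower after Poly I:C and higher after PBS, and Slc43a3 the reverse; at 2 h Slc25a25 had an effect called higher after Poly I:C and lower after PBS. The 11 include Slc12a7 and Slc30a1, which met the rule at 2 h only with PBS first and only without LPS in turn. Such reversals were not counted over all tested entries, so these counts do not set carriers apart from other genes. All 3 calls held in every setting for Slc25a20, Slc29a3, Slc35f5 and Slc23a2.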

How the results depend on the processing

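None of the 465 calls over the 10 comparisons changed direction in any setting, and 340 kept their call in every setting. The settings were a pseudocount of 0.1, no filter on low values, median-of-ratios scaling and the libraries of 1 time alone. Others were both PBS-PBS libraries as 1 control, a replicate block, and each library outside the PBS-PBS groups left out in turn. A fit without a library was read only for comparisons that use its group. The PBS-PBS libraries, 1 per time, were never left out. With libraries of 1 time alone, LPS after PBS at 2 h lowered 6 genes instead of 13, and the interaction at 2 h was lower for 1 instead of 3.

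Leaving out 1 library gave 10 to 22 lower for LPS after PBS at 2 h, 11 to 16 higher and 8 to 10 lower for LPS after Poly I:C at 2 h, and 1 to 11 higher and 1 to 6 lower for the interaction at 2 h; the cause was not tested. The other counts stayed within 1.5 times. Replicate numbers were not paired: deviations of same-numbered libraries correlated at -0.19 to 0.0778 over 15 pairs of groups, and with a replicate block 24 of 351 named calls lost their call. Depth is unknown, so no detection limit can be given, and the 1 PBS-PBS library per time takes its spread from the other groups.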
